A study of Mus musculus with 20 samples.

Results

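A set of 9 genes that mark newly forming neurons was followed across mouse neurosphere cultures: the proneural and intermediate-progenitor transcription factor genes Neurog2, Eomes and Neurod1, the SoxC factor genes Sox4 and Sox11, and the neuroblast and growth-cone genes Dcx, Tubb3, Stmn2 and Gap43. They were taken by symbol from a table of 36724 genes, and each of the 9 members had 1 row. Neurospheres are floating clusters grown from dissociated brain tissue that holds neural stem and progenitor cells. All donors were adult C57BL6 mice of 8 to 12 weeks, all spheres were untreated, and the medium held EGF and FGF, each given at 20 ng/ml. The 20 libraries fall into 6 groups. Spheres of the subventricular zone (SVZ, first sphere round, culture day 3, male donors) gave 3 Egfl7 knockout and 3 wild-type libraries. First-round hippocampal spheres (HC1, day 5) gave 3 knockout libraries from male donors and 3 wild-type libraries from female donors. Second-round hippocampal spheres (HC2, day 5, male donors) gave 4 knockout and 4 wild-type libraries. The sources used here do not say which part of Egfl7 was deleted, or in which cells. Donor sex and genotype cannot be told apart in HC1, region and culture day cannot be told apart between SVZ and HC1, and SVZ and HC2 differ in region, culture day and sphere round at once. The RPKM value of 1 read, relative to HC1 knockout replicate 1, was 0.386 to 0.680 in HC2 and 0.869 to 1.03 in SVZ and HC1, so all HC2 libraries were deeper and sphere round cannot be told apart from the sequencing. Donors of the same number recur in several groups without a statement that they are 1 animal.

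In adult neurogenesis, a stem cell gives rise to dividing progenitors, then to migrating neuroblasts, then to neurons. Proneural basic helix-loop-helix factors such as Neurog2 and Neurod1 bind E-boxes (CANNTG) and switch on neuronal genes, Id proteins block them by capturing their partners, and Eomes (Tbr2) marks intermediate progenitors of the glutamatergic lineage, which the hippocampus makes and most SVZ neuroblasts do not follow. Sox4 and Sox11 act after the proneural factors and activate genes of immature neurons, including Tubb3 and Dcx. These last are cytoskeletal: Dcx stabilises microtubules in migrating neuroblasts, Tubb3 is a neuron-enriched tubulin, Stmn2 regulates microtubules in growing axons, and Gap43 is a growth-cone protein that glia and progenitors can also express.

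Levels are RPKM, reads scaled to gene length and library size. The libraries also went through an exon capture step, and its yield for each gene is not given. An order of genes by RPKM is therefore approximate. Over the 20 libraries the median level was 173 RPKM for Gap43 and 123 RPKM for Sox4. The medians of Tubb3 (19.7 RPKM) and Sox11 (19.3 RPKM) were close to each other, within the spread of either. Dcx had a median of 3.53 RPKM. The other 4 genes were near the floor, with medians of 0.306 RPKM for Neurod1, 0.223 RPKM for Neurog2, 0.211 RPKM for Stmn2 and 0.141 RPKM for Eomes. The members lie apart in the genome, all as protein-coding genes of GRCm38: Neurog2 on chr3:127633145-127635631, Stmn2 on chr3:8509527-8561604, Eomes on chr9:118478180-118486132, Neurod1 on chr2:79452641-79456636, Dcx on chrX:143855842-143933270, Tubb3 on chr8:123411564-123422010, Sox4 on chr13:28950716-28953682, Sox11 on chr12:27334268-27342718 and Gap43 on chr16:42248552-42340651. By RPKM, the abundant members were thus a growth-cone gene and a SoxC gene, and the scarce ones were the proneural factors, Eomes and the axonal gene Stmn2.

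**Figure D1:**
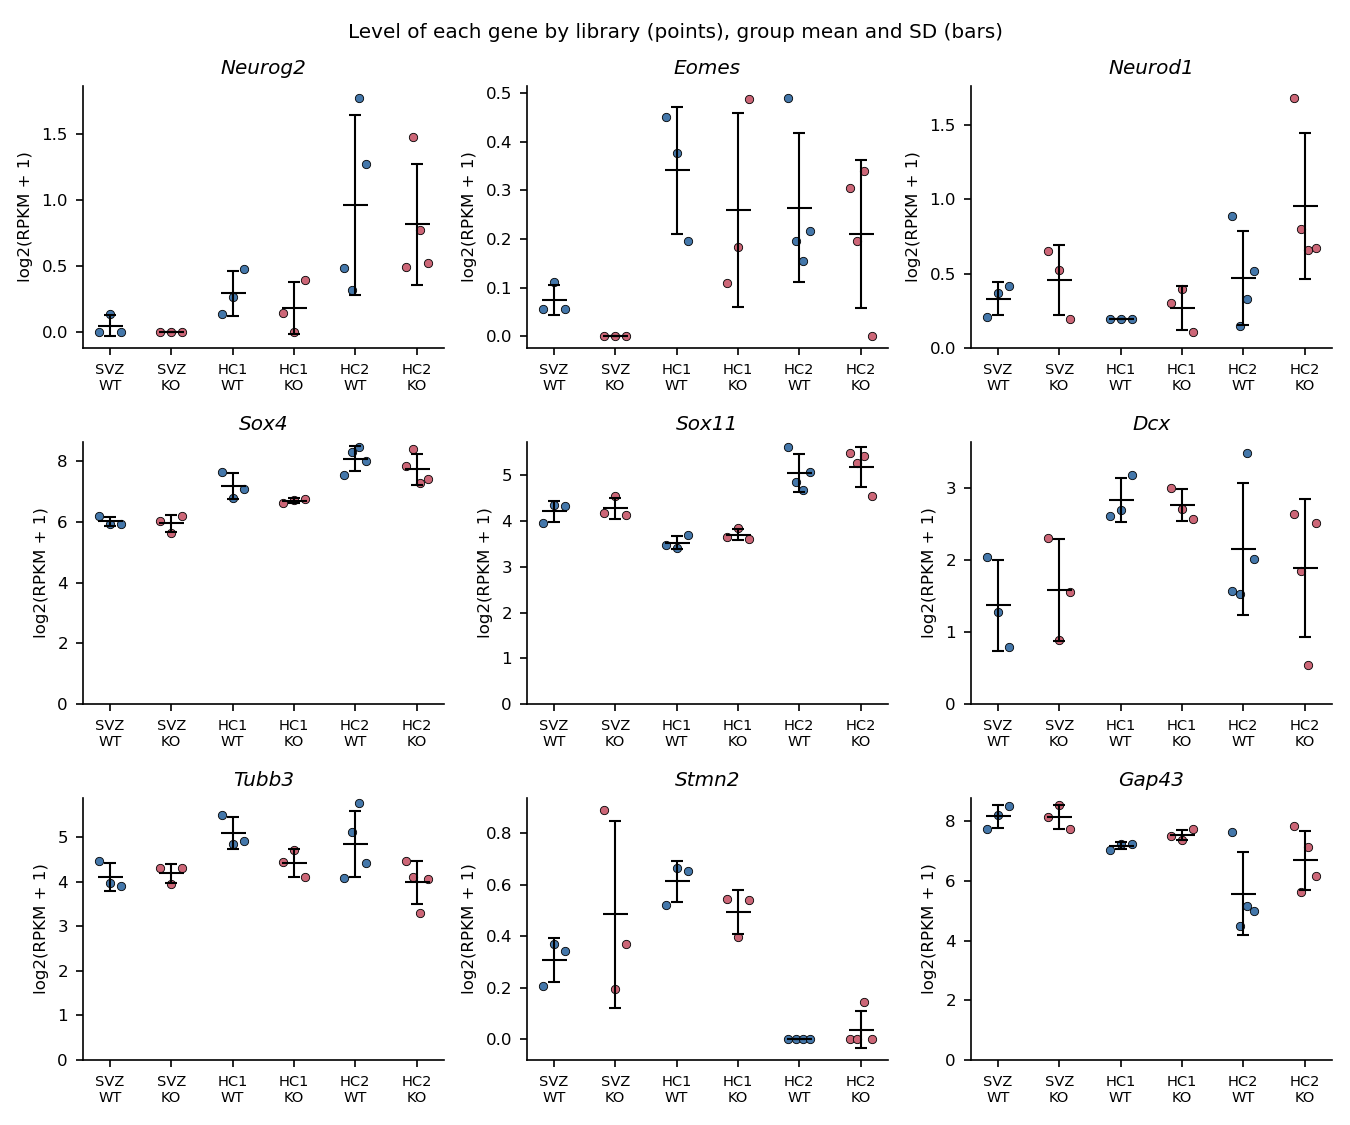
Level of each of the 9 genes as log2(RPKM + 1) on the vertical axis, by group on the horizontal axis, with wild-type libraries in blue and knockout libraries in red (horizontal bars are group means and vertical bars SD, n = 3 or 4 libraries). Sox11 runs from 22.4 to 48.2 RPKM in HC2 and from 9.66 to 13.3 RPKM in HC1, and Stmn2 is listed at 0 in 7 of the 8 HC2 libraries.

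Differences between groups were tested on log2(RPKM + 1) with limma across the 16403 genes that reached 0.5 RPKM in 3 or more libraries, with p-values adjusted by Benjamini-Hochberg over all of them and a threshold of 0.05. Of the 9 members, 8 passed this filter and Eomes did not. Neurog2 passed only through 4 HC2 libraries, Neurod1 through 5 HC2 libraries and 1 SVZ library, and Stmn2 through 2 HC1 libraries and 1 SVZ library, so these 3 genes had to differ between cultures to pass. Their differences between cultures are therefore given from the same fit with no filter, over 28066 genes, and they are left out of the counts of members that passed. The other 5 (Dcx, Tubb3, Sox4, Sox11 and Gap43) reached the filter in every culture. The log2(RPKM + 1) scale understates changes of such low genes, and a log2 difference below is on that scale. Whether the libraries came from separate donors throughout is not stated, so the p-values measure the spread between these libraries.

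Beside the members, the spheres expressed stem and progenitor genes at high level: Nes ranged from 453 to 563 RPKM in SVZ, from 273 to 397 in HC1 and from 59.1 to 287 in HC2. Sox2 was instead highest in HC2, at 74.9 to 98.4 RPKM in SVZ, 72.1 to 155 in HC1 and 183 to 320 in HC2. Of 10 such genes, 3 passed as higher and 2 as lower in HC2 than in HC1 (50% together, against 54.3% of all genes). The mean log2(RPKM + 1) of 25 cell cycle genes ranged from 6.58 to 6.77 in SVZ, from 4.61 to 6.01 in HC1 and from 1.61 to 5.87 in HC2. The mean of 10 astrocyte genes ranged from 4.63 to 5.66 in SVZ, from 6.03 to 7.33 in HC1 and from 5.70 to 8.11 in HC2. That of 14 oligodendrocyte-lineage genes ranged from 3.41 to 3.83 in SVZ, from 3.98 to 4.88 in HC1 and from 3.24 to 4.33 in HC2. The summed level of 12 microglia genes was 9.0 RPKM at most, with 7 of the 12 at 0 in all SVZ libraries, 7 in all HC1 and 4 in all HC2 libraries, and that of 10 endothelial genes 8.72 RPKM at most. Egfl7 itself was at 0 in the 7 hippocampal knockout libraries and between 0.566 and 1.59 RPKM in the 7 hippocampal wild-type libraries. In SVZ the library labelled knockout replicate 2 held 2.86 RPKM of Egfl7 and the library labelled wild-type replicate 3 held 0, against their labels. SVZ results are therefore also given without these 2 libraries.

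The proneural gene Neurog2 was all but absent from SVZ spheres and highest in HC2. In SVZ it was at 0 in all 3 knockout libraries and in 2 wild-type libraries, and at 0.0990 RPKM in wild-type replicate 2. In HC1 the wild-type libraries were at 0.0990, 0.200 and 0.391 RPKM and the knockout libraries at 0.105, 0 and 0.310 RPKM. In HC2 the wild-type libraries were at 0.398, 0.245, 2.42 and 1.42 RPKM and the knockout libraries at 0.404, 1.78, 0.711 and 0.435 RPKM. Every HC2 library lay above every SVZ library, whereas HC1 and HC2 overlapped. The low values are whole multiples of what 1 read is worth, which gives 1 Neurog2 read in all SVZ libraries together, 11 reads in HC1 and 167 in HC2. At equal depth HC2 thus held 5.43 times as many Neurog2 reads as HC1, with a 95% interval of 2.96 to 11.1, and 62.0 times as many as SVZ (11 to 2462), intervals that cover counting error only and take no account of the spread between libraries. Both ratios rest on few reads in the lower culture: without SVZ wild-type replicate 2 SVZ held none, and HC2 then held at least 17.2 times as many when SVZ is set at a floor of 3 reads over the culture. With no filter, the log2 difference was 0.65 between HC2 and HC1 (SE 0.20, limma adjusted p = 0.0164), -0.87 between SVZ and HC2 (adjusted p = 0.00177) and -0.21 between SVZ and HC1 (adjusted p = 0.583), in fits that called 35.8%, 45.3% and 17.9% of all genes.

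These differences are shares of a bulk sample, so more cells of a type and more RNA per cell cannot be told apart. In the knockout libraries alone, which are all from male donors, Neurog2 was 0.64 higher in HC2 than in HC1 and did not pass the threshold in the filtered fit (adjusted p = 0.0859).

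Eomes, the intermediate-progenitor factor, never reached 0.5 RPKM. In SVZ the wild-type libraries were at 0.04, 0.08 and 0.04 RPKM and the 3 knockout libraries at 0. Wild-type HC1 libraries were at 0.368, 0.298 and 0.146 RPKM and the knockout libraries at 0.0790, 0.135 and 0.402 RPKM. Wild-type HC2 libraries were at 0.405, 0.146, 0.113 and 0.162 RPKM and the knockout libraries at 0.235, 0.146, 0.265 and 0 RPKM. SVZ thus lay at the low end, and HC1 and HC2 overlapped throughout. With no filter on low values, limma gave a log2 difference of -0.26 between SVZ and HC1 (adjusted p = 0.0250) and of -0.20 between SVZ and HC2 (adjusted p = 0.0301), and of -0.06 between HC2 and HC1 (adjusted p = 0.525). The reads behind these values could not be worked out, and the opposite-strand gene Gm33408, which overlaps the start of Eomes, reached 0.188 RPKM.

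Neurod1, which acts downstream of Neurog2 and Eomes, was also low. Wild-type SVZ libraries were at 0.156, 0.292 and 0.335 RPKM and the knockout libraries at 0.573, 0.435 and 0.146 RPKM. HC1 wild-type libraries were at 0.146, 0.147 and 0.144 RPKM and the knockout libraries at 0.231, 0.319 and 0.0760 RPKM. HC2 wild-type libraries were at 0.847, 0.109, 0.255 and 0.433 RPKM and the knockout libraries at 2.21, 0.737, 0.576 and 0.595 RPKM. HC2 and HC1 overlapped, and 1 HC2 knockout library stood far above the rest. The reads summed to 27 in SVZ, 14 in HC1 and 170 in HC2, so HC2 held 4.34 times as many as HC1 at equal depth (2.52 to 8.12, counting error only). Of the HC2 reads, 74 came from knockout replicate 1, and without that library the ratio was 2.89. With no filter, the log2 difference between HC2 and HC1 was 0.48 (SE 0.15, limma adjusted p = 0.0194), and those of SVZ from HC1 (0.16, adjusted p = 0.576) and from HC2 (-0.32, adjusted p = 0.102) did not pass the test.

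Sox4 and Sox11, HMG-box factors with largely shared targets in immature neurons, did not follow the same order across cultures. Their upstream regions, from RefSeq on GRCm38.p6, are shown with that of Neurog2. These 3 genes had their highest means in HC2, as Neurod1 did too. The windows end at the transcription start, leave out transcribed bases and are written 5′ to 3′ on the gene's strand, with E-boxes (CANNTG, searched on both strands) in capitals. They lie at chr13:28953714-28953949 (Sox4, minus strand), chr12:27342719-27342968 (Sox11, minus strand) and chr3:127632886-127633134 (Neurog2, plus strand).
Sox4: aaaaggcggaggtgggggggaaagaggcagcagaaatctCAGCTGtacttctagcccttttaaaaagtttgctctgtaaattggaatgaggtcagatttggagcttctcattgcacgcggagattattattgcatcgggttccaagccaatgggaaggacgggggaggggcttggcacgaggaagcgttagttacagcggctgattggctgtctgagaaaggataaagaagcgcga
Sox11: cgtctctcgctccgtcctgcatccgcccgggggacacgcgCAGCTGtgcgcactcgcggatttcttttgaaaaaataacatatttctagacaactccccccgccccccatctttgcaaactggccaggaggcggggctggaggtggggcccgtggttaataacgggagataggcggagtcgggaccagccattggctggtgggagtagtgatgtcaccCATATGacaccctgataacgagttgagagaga
Neurog2: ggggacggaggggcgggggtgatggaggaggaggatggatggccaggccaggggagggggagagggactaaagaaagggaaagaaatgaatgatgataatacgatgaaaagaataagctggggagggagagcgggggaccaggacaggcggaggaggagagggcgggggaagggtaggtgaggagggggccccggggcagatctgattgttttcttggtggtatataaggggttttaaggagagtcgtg
The Sox4 window of 236 bases holds 1 E-box and the Sox11 window of 250 bases holds 2, of which 1 in each is CAGCTG. Among 32851 promoters, 64.3% of windows of 236 bases hold a CANNTG and 12.2% a CAGCTG, and 66.2% and 13.0% of windows of 250 bases do. The Neurog2 window of 249 bases holds no CANNTG, whereas 66.1% of windows of that length do. The Neurod1 window, not shown, holds 1 CANNTG in 135 bases, where 45.6% of windows of that length hold a match. A match describes letters in the window and not a bound site.

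Sox4 was lowest in SVZ, higher in HC1 and highest in HC2. SVZ wild-type libraries were at 72.2, 60.2 and 60.6 RPKM and the knockout libraries at 64.5, 49.1 and 72.2 RPKM. In HC1 the wild-type libraries were at 202, 111 and 136 RPKM and the knockout libraries at 97.6, 105 and 107 RPKM. In HC2 the wild-type libraries were at 185, 319, 352 and 260 RPKM and the knockout libraries at 228, 336, 153 and 172 RPKM. Every hippocampal library lay above every SVZ library, and HC1 and HC2 overlapped through the highest HC1 wild-type library. The log2 difference was -0.96 between SVZ and HC1 (SE 0.20, adjusted p = 0.00213), 0.97 between HC2 and HC1 (adjusted p = 0.000271) and -1.92 between SVZ and HC2 (adjusted p = 1.02e-07). The last corresponds to 0.264 times the HC2 level. Without the 2 SVZ libraries that go against their labels the SVZ to HC1 difference was -0.86 (adjusted p = 0.0202), and in knockout libraries alone it was -0.75 and did not pass (adjusted p = 0.108).

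Sox11 was lowest in HC1, higher in SVZ and highest in HC2. In SVZ the wild-type libraries were at 14.6, 19.5 and 19.1 RPKM and the knockout libraries at 17.1, 22.4 and 16.6 RPKM. Wild-type HC1 libraries were at 10.1, 9.66 and 11.9 RPKM and the knockout libraries at 11.6, 13.3 and 11.3 RPKM. Wild-type HC2 libraries were at 48.2, 28.0, 24.6 and 32.5 RPKM and the knockout libraries at 43.7, 37.6, 42.0 and 22.4 RPKM. HC1 overlapped with neither of the other cultures, and the lowest HC2 library lay at the level of the highest SVZ library. HC2 exceeded HC1 by 1.5 on the log2 scale, or 2.83-fold (SE 0.16, adjusted p = 4.25e-07), and the SVZ level was 0.63 above HC1 (adjusted p = 0.00942) and 0.87 below HC2 (difference -0.87, adjusted p = 0.000127). Without the 2 SVZ libraries against their labels the SVZ to HC1 difference was 0.54 and did not pass (adjusted p = 0.0633), nor did it in knockout libraries alone (0.58, adjusted p = 0.139).

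Dcx, the neuroblast microtubule gene on the X chromosome, had its highest mean and its narrowest range in HC1. The HC1 mean was 6.23 RPKM in wild-type libraries from female donors and 5.85 RPKM in knockout libraries from male donors. The part of donor sex was not tested. Wild-type SVZ libraries were at 3.13, 1.43 and 0.724 RPKM and the knockout libraries at 3.94, 0.854 and 1.94 RPKM. HC1 wild-type libraries were at 5.15, 5.50 and 8.06 RPKM and the knockout libraries at 7.04, 5.56 and 4.94 RPKM. HC2 wild-type libraries were at 1.98, 1.88, 10.3 and 3.04 RPKM and the knockout libraries at 5.21, 2.61, 0.463 and 4.72 RPKM. HC1 and SVZ did not overlap, whereas HC2 spanned from below the SVZ values to above the HC1 values. The log2 difference was -1.32 between SVZ and HC1 (SE 0.39, adjusted p = 0.0166), -0.78 between HC2 and HC1 (adjusted p = 0.0813) and -0.54 between SVZ and HC2 (adjusted p = 0.197). Without the 2 SVZ libraries against their labels the first was -1.0 and did not pass (adjusted p = 0.111), and without HC2 wild-type replicate 5 the HC2 to HC1 difference was -1.0 and passed (adjusted p = 0.0153).

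Tubb3, the neuronal beta-tubulin, passed the test in no comparison of cultures. SVZ wild-type libraries were at 21.1, 14.6 and 13.9 RPKM and the knockout libraries at 18.8, 14.4 and 18.7 RPKM. In HC1 the wild-type libraries were at 44.0, 27.5 and 29.2 RPKM and the knockout libraries at 20.7, 25.3 and 16.2 RPKM. In HC2 the wild-type libraries were at 16.1, 33.7, 52.9 and 20.5 RPKM and the knockout libraries at 21.2, 16.1, 8.90 and 15.7 RPKM. The cultures overlapped in each pair. The log2 difference was -0.60 between SVZ and HC1 (95% interval -1.14 to -0.07, adjusted p = 0.0725), -0.34 between HC2 and HC1 (-0.83 to 0.16, adjusted p = 0.240) and -0.27 between SVZ and HC2 (-0.77 to 0.23, adjusted p = 0.322). With limma fitted to the SVZ and HC1 libraries alone, the first passed (adjusted p = 0.00890).

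Stmn2, low in all cultures, was all but absent from HC2. In SVZ the wild-type libraries were at 0.155, 0.291 and 0.267 RPKM and the knockout libraries at 0.855, 0.144 and 0.291 RPKM. Wild-type HC1 libraries were at 0.434, 0.586 and 0.573 RPKM and the knockout libraries at 0.460, 0.317 and 0.454 RPKM. In HC2 it was at 0 in all 4 wild-type libraries and in 3 knockout libraries, and at 0.104 RPKM in knockout replicate 7. No HC2 library reached the lowest value of the other cultures. The reads summed to 14 in SVZ, 19 in HC1 and 1 in HC2, where 3 reads in a library would give 0.178 to 0.313 RPKM. At equal depth HC1 held 53.1 times (8.44 to 2206) and SVZ 37.7 times (5.74 to 1594) as many reads as HC2, counting error only. Without HC2 knockout replicate 7, the library with that read, they held at least 16.2 and 11.5 times as many when HC2 is set at a floor of 3 reads over the culture. With no filter, the log2 difference was -0.54 between HC2 and HC1 (limma adjusted p = 5.26e-05), 0.38 between SVZ and HC2 (adjusted p = 0.00100) and -0.16 between SVZ and HC1 (adjusted p = 0.247).

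Gap43, with the highest median RPKM of the 9 genes, had its highest mean in SVZ and its lowest in HC2, the reverse of Sox4. Wild-type SVZ libraries were at 211, 297 and 365 RPKM and the knockout libraries at 281, 374 and 214 RPKM. HC1 wild-type libraries were at 131, 149 and 150.3 RPKM and the knockout libraries at 181, 165 and 210 RPKM. Wild-type HC2 libraries were at 196, 21.6, 34.8 and 30.9 RPKM and the knockout libraries at 228, 48.9, 139 and 70.2 RPKM. SVZ and HC1 did not overlap, though their nearest values, 211 and 210 RPKM, almost met. HC2 split widely, with wild-type replicate 2 and knockout replicates 1 and 7 inside or above the HC1 range and 5 libraries at 70.2 RPKM or below. The log2 difference was 2.02 between SVZ and HC2, or 4.06-fold (SE 0.41, adjusted p = 0.000372), -1.22 between HC2 and HC1 (adjusted p = 0.0186) and 0.80 between SVZ and HC1 (adjusted p = 0.168). In knockout libraries alone the HC2 to HC1 difference was -0.84 and did not pass (adjusted p = 0.267).

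**Figure D2:**
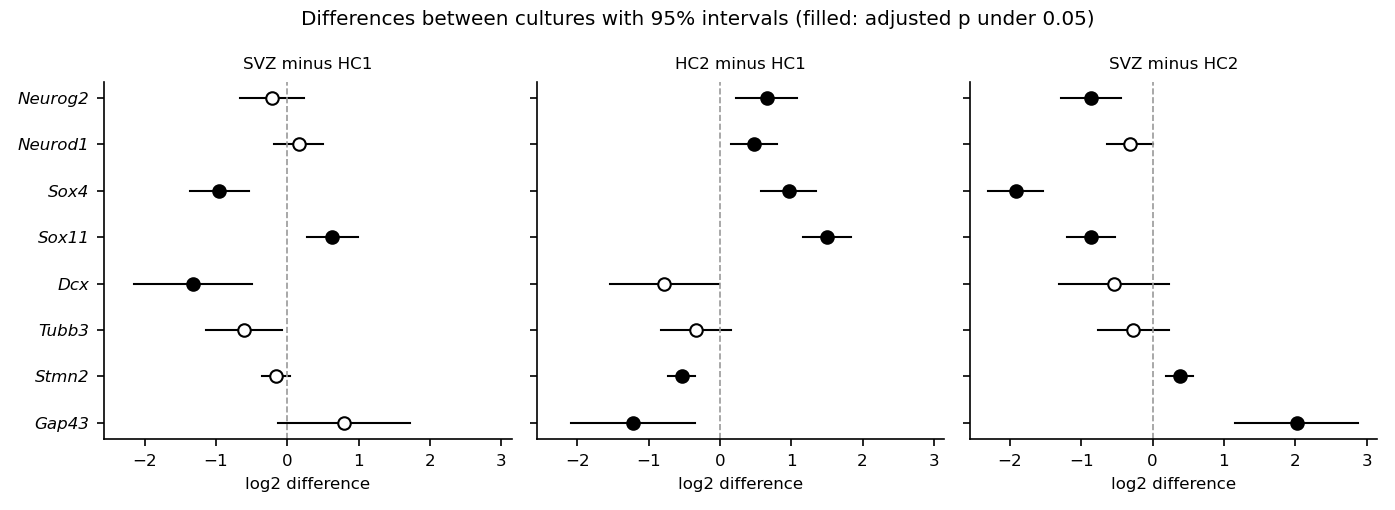
Log2 difference of each tested gene on the horizontal axis between SVZ and HC1, HC2 and HC1, and SVZ and HC2 (points, mean over both genotypes; lines, 95% intervals of the limma fit; filled points, adjusted p under 0.05). Sox4 is lower in SVZ than in both hippocampal cultures (-0.96 and -1.92), and Gap43 stands on the other side of 0 (0.80 and 2.02); Neurog2, Neurod1 and Stmn2 had to differ between cultures to be in this fit.

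Of the 5 members that reached the filter in every culture, 3 passed between SVZ and HC1 (Sox11 higher in SVZ, Dcx and Sox4 lower), where 34.1% of all tested genes passed, 14.5% higher and 19.6% lower. Between HC2 and HC1, 3 passed (Sox4 and Sox11 higher in HC2, Gap43 lower), against 54.3% of all genes, 22.8% higher and 31.5% lower. Between SVZ and HC2, 3 passed (Gap43 higher in SVZ, Sox4 and Sox11 lower), against 67.2% of all genes, 34.7% higher and 32.6% lower. A count of 3 is 60% of these 5 genes, above the background between SVZ and HC1 and within 10 percentage points of it in the others, and nothing particular to the members is read from it. The 3 comparisons share libraries. Libraries of the 2 cultures did not overlap for 4 of the 5 between SVZ and HC1 (23.6% of all genes), 1 between HC2 and HC1 (25.4%) and 1 between SVZ and HC2 (38%). Without the 2 SVZ libraries that go against their labels, Sox4, Sox11 and Gap43 still passed between SVZ and HC2, and between SVZ and HC1 Sox4 did. In knockout libraries alone, no member passed between SVZ and HC1 by limma. Of all genes that passed between HC2 and HC1, 42.0% were higher in HC2, and 52.9% were when libraries were rescaled by median ratios.

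Cell cycle genes also differed between cultures: all 25 had higher means in SVZ than in HC2 and passed the test, all 25 had lower values in HC2 than in HC1 and 18 passed, and all 25 had higher values in SVZ than in HC1 and 4 passed. Within HC2 the 3 libraries with the highest cell cycle means (5.87 in wild-type replicate 2, 5.66 in knockout replicate 7 and 5.56 in knockout replicate 1) were also the 3 with the most Gap43 (196, 139 and 228 RPKM) and the most Sox11 (48.2, 42.0 and 43.7 RPKM). The library with the lowest cell cycle mean, wild-type replicate 5 at 1.61, held the most Neurog2, Dcx, Tubb3 and Sox4 of the 8. Gfap in that library was at 536 RPKM, against 1.33 RPKM in wild-type replicate 2. The part of these differences in the results was not tested.

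**Figure D3:**
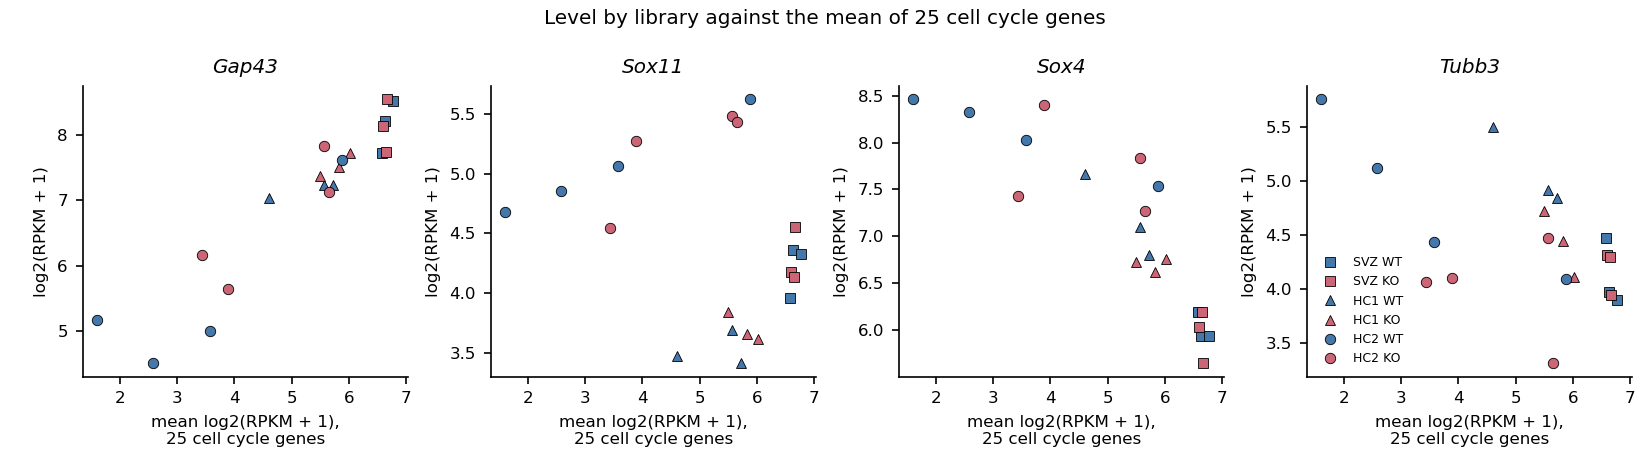
Level of Gap43, Sox11, Sox4 and Tubb3 as log2(RPKM + 1) on the vertical axes against the mean log2(RPKM + 1) of 25 cell cycle genes on the horizontal axes, 1 point per library (squares SVZ, triangles HC1, circles HC2; blue wild type, red knockout). SVZ libraries cluster between 6.58 and 6.77, HC2 libraries spread from 1.61 to 5.87, and over that spread Gap43 runs from 21.6 to 228 RPKM.

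Other genes of the same steps were taken from lists, whose counts stand beside the shares of all genes given above. Of 29 further proneural factors, partners and regulators, 17 passed the filter. Of the 29, 8 were at 0 in all SVZ libraries and 7 in all HC1 libraries, against 3 in all HC2 libraries. The lists were not screened, as the members were, for genes that pass the filter only through the culture where they are high. How many such genes the counts hold was not worked out, so nothing particular to the lists is read from them. Between HC2 and HC1, 9 of the 17 were higher in HC2 (52.9%, against 22.8% of all genes) and 1 lower (5.88%, against 31.5%), with a median log2 difference of 0.65 beside -0.06 over all genes. Hes6, which promotes neuronal differentiation, rose 1.35 from 35.1 ± 7.17 RPKM (SD, n = 6) in HC1 to 91.3 ± 19.1 RPKM (SD, n = 8) in HC2 (adjusted p = 4.14e-07). Id1, an inhibitor of proneural factors, was also 1.34 higher in HC2 (adjusted p = 2.68e-05). Between SVZ and HC2, 2 of the 17 were higher in SVZ (11.8%, against 34.7%) and 10 lower (58.8%, against 32.6%). Id4, another inhibitor, was lower in SVZ (difference -3.34, 0.445 ± 0.321 against 17.6 ± 14.8 RPKM). Its SVZ values ran from 0.16 to 0.889 RPKM, so it passed the filter mainly through the hippocampal cultures and its test is not given. Hes5, a Notch effector that represses proneural genes, was lower too (-2.72, limma adjusted p = 9.80e-06). Between SVZ and HC1, 3 were higher in SVZ (17.6%, against 14.5%) and 4 lower (23.5%, against 19.6%), near the shares of all genes. Among them Id1 was higher (0.86, adjusted p = 0.00671). Hes5 (-1.34, limma adjusted p = 0.0197) and Myt1 (-0.81, limma adjusted p = 0.011) were lower.

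Of 38 neuroblast cytoskeleton, migration and adhesion genes, 37 passed the filter. In SVZ, 4 were higher and 12 lower than in HC1 (43.2% together, against 34.1% of all genes). Mapt, which encodes the axonal microtubule protein tau, was at 19.6 ± 6.12 RPKM (SD, n = 6) in SVZ and 69.0 ± 24.5 RPKM (SD, n = 6) in HC1 (difference -1.77, adjusted p = 0.000103), the same direction as Dcx. Between HC2 and HC1, 5 were higher and 10 lower (40.5% together, under the 54.3% of all genes). Stmn1, a microtubule-destabilising stathmin, fell by 1.88 from 292 ± 59.2 RPKM to 83.0 ± 32.5 RPKM (adjusted p = 8.10e-07), the direction of its relative Stmn2, and Crmp1, a semaphorin-pathway gene, fell by 1.27 (adjusted p = 3.83e-07). Between SVZ and HC2, 11 were higher in SVZ and 14 lower, 67.6% together, which is the share of all genes (67.2%). Stmn1 was 2.40 higher in SVZ (adjusted p = 2.98e-08), and Erbb4, a neuregulin receptor of migrating neuroblasts, was lower there (-2.70, adjusted p = 7.46e-07).

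Among 29 tested genes of neuronal fate transcription and RNA binding, 2 were higher and 6 lower in SVZ than in HC1 (27.6% together, against 34.1% of all genes). Elavl4, a neuronal RNA-binding protein gene, was at 6.68 ± 1.57 RPKM (SD, n = 6) in SVZ and 30.0 ± 9.37 RPKM (SD, n = 6) in HC1 (difference -1.96, adjusted p = 0.00506). Dlx2, an interneuron-lineage factor, was higher in SVZ (difference 0.94). Its HC1 values ran from 0.086 to 0.912 RPKM and its HC2 values reached 0.676 RPKM at most. It thus passed the filter mainly through SVZ, and its test is not given. In HC2, 6 of the 29 were higher and 12 lower than in HC1 (62.1% together, against 54.3% of all genes), with Pou3f2, a neural POU factor, higher (1.17, adjusted p = 1.79e-06). Of 13 tested mature neuron genes, 2 were higher and 8 lower in HC2 than in HC1 (76.9% together, against 54.3%). The synaptic genes Syn1 (-2.08, adjusted p = 4.59e-11) and Snap25 (-1.53, adjusted p = 4.04e-05) were lower, as Stmn2 was, and Reln, a secreted protein of some neurons, was higher (1.94, adjusted p = 0.00152).

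Between genotypes, no member passed the test in any culture. In SVZ, 0.0122% of all genes passed by limma, in HC1 0.0122%, in HC2 0.0244% and over both hippocampal rounds 0.0305%. At an unadjusted p under 0.05 there were 379, 646, 644 and 970 genes (2.31%, 3.94%, 3.93% and 5.91% of all). The fits thus called almost no gene, and members with small p-values are given here by their values: at an unadjusted p under 0.05 there were 0 members in SVZ, 0 in HC1, 2 in HC2 (Tubb3 and Neurod1) and 2 over both rounds (Tubb3 and Sox4). In SVZ the log2 differences, knockout minus wild type, ran from -0.07 (Sox4) to 0.21 (Dcx). Without the 2 libraries that go against their labels, that of Stmn2 moved from 0.18 to 0.34 (SE 0.15, limma adjusted p = 1.0) and was the largest, and that of Dcx was 0.27. The wild-type and knockout values given above overlapped for all 8 tested members, whereas 7.76% of all genes had groups that did not overlap. Eomes was at 0 in the 3 SVZ knockout libraries and above 0 in the 3 wild-type libraries, at 0.08 RPKM or below.

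Tubb3 had the smallest p of the members in the hippocampus. In HC1 all 3 wild-type libraries lay above all 3 knockout libraries (33.6 ± 9.05 against 20.7 ± 4.57 RPKM, SD, n = 3 each), with a difference of -0.66 (limma adjusted p = 0.976). In HC2 the groups overlapped (30.8 ± 16.5 against 15.5 ± 5.03 RPKM, SD, n = 4 each), with a difference of -0.86 (95% interval -1.52 to -0.21, limma adjusted p = 0.988). Over both rounds the difference was -0.76 (SE 0.24, unadjusted p = 0.00492, limma adjusted p = 0.750). The direction was the same in both rounds, and the difference did not pass the adjusted threshold.

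Sox4 and Gap43 likewise showed non-overlapping groups in HC1, where 13.7% of all genes did. Sox4 was at 149 ± 47.0 RPKM in wild type and 103 ± 5.11 RPKM in knockout (SD, n = 3 each), a difference of -0.48 in HC1 and of -0.35 in HC2 (limma adjusted p = 0.976 and 0.988). Gap43 was at 143 ± 11 RPKM in HC1 wild type and 185 ± 23.0 RPKM in knockout (SD, n = 3 each), a difference of 0.36 (limma adjusted p = 0.984). In HC2 it was at 70.8 ± 83.5 and 121 ± 80.5 RPKM (SD, n = 4 each), with overlapping groups and a difference of 1.12 (95% interval -0.01 to 2.26, limma adjusted p = 0.988). With single HC2 libraries left out the difference ranged from 0.74 to 1.80 and passed in no case. The highest value was without HC2 wild-type replicate 2 (limma adjusted p = 0.0814). In HC2, 1.13% of all genes had groups that did not overlap, and no member did.

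Neurod1 in HC2 was at 0.411 ± 0.319 RPKM in wild type and 1.03 ± 0.789 RPKM in knockout (SD, n = 4 each), a difference of 0.48 (unadjusted p = 0.0274, limma adjusted p = 0.988) and 0.24 without knockout replicate 1. The differences of Neurog2 (-0.11 in HC1, -0.15 in HC2), Dcx (-0.07 and -0.27), Sox11 (0.18 and 0.13) and Stmn2 (-0.12 and 0.04) had 95% intervals that included 0. All 25 cell cycle genes had positive knockout differences in HC1 (median 0.51) and in HC2 (median 1.27), with none past the test by limma and 0 at an unadjusted p under 0.05, and 9 of 10 astrocyte genes had negative ones in each round. Their part in the values of Tubb3, Sox4 and Gap43 was not tested. No member passed the interaction test of the knockout difference in SVZ or in HC1 against that in HC2, which 0.0305% and 0.0244% of all genes passed. None of the 17, 37, 29 and 13 tested genes of the lists above passed between genotypes in SVZ, HC1 or HC2 by limma. In these cultures 0, 3 and 8 of these 96 genes had an unadjusted p under 0.05, beside 2.31%, 3.94% and 3.93% of all genes.

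**Figure D4:**
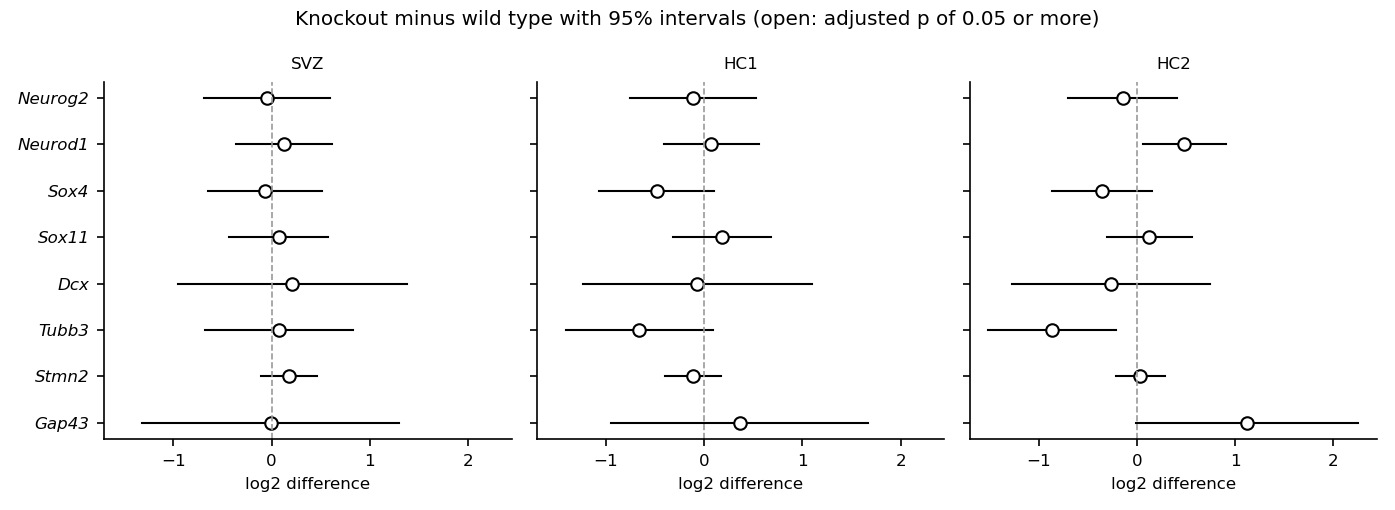
Log2 difference of each tested gene, knockout minus wild type, on the horizontal axis in SVZ, HC1 and HC2 (points; lines, 95% intervals of the limma fit). Every point is open, since no adjusted p was under 0.05; Tubb3 lies at 0.07, -0.66 and -0.86, and the intervals of Gap43 and Dcx are the widest.

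Genes whose levels rose and fell with a member from library to library, after the mean of each group was subtracted, were ranked over 20 libraries among 11695 (11696 for Eomes) genes, as a description with no test. Dcx was most like Lrrc4 (Pearson r = 0.93), Kcna6 (0.93), Stk32a (0.91), Lrrtm2 (0.90) and Maml2 (0.90). Sox11 was most like Sclt1 (0.93), Polr3g (0.92), Baz1a (0.92), Vasp (0.92) and C1qbp (0.91). Eomes was most like Ict1 (0.90), Rpl8 (0.89), Cfl1 (0.88), Slc2a9 (0.88) and Kank4 (0.88), at levels of Eomes of at most 0.405 RPKM. The libraries share their depth and their spread in cell cycle genes, which these coefficients carry too.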

How the data were processed

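Per the labels' protocols, strand-specific libraries of rRNA-depleted total RNA went through an exon capture step and paired-end sequencing. The submitters' processing notes name FastQC 0.11.5, DESeq2 and the builds mm10 and GRCm38. The sources used here do not name the aligner, the counting tool or its use of strand. The deposited table holds, per the file headers, linear total RPKM values of the authors for 36724 genes, with decimal commas, and blanks were read as 0. RPKM was transformed to log2(RPKM + 1). Genes of at least 0.5 RPKM in 3 of 20 libraries (16403, 44.7%) were fitted with limma 3.58.1 in R 4.3.3, as 6 group means with 14 residual degrees of freedom, a trended and robust variance prior and Benjamini-Hochberg adjustment at 0.05. The differences between cultures are means over both genotypes. No value column was left out, and no 2 libraries were identical.

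RPKM is not a count, so no count test was run. Among 752 low genes, 99.6% of 9256 values were whole multiples of 1 read to within 0.1 read, and these steps gave relative depths and the reads of Neurog2, Neurod1 and Stmn2, where a read may be a read pair. Library totals are not given in the files, and read intervals are 95% and cover counting error only. The fit was tested on simulated data. Alternatives were a pseudocount of 0.1, no filter, the authors' filtered gene table, median-ratio scaling, only the groups compared, single libraries left out, a replicate block, and the SVZ libraries that go against their labels left out. The 9 genes and the lists were chosen with earlier results of these data known. The lists' genes were named by size among genes past the test whose groups did not overlap, at most a pair per direction, list and comparison, and only some of these are given. Promoter windows came from RefSeq tables, which matched 7 of the 9 genes. Stmn2 and Gap43 had no entry. Positions are GRCm38.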

Additional observations from a re-analysis of the deposited data

Results flagged for a closer look

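In groups of 4 libraries, a single library stood far from the other 3 in 5 of 24 gene and group combinations checked. A library was flagged by its gap to the next one as a share of the group's range. RPKM values are skewed and the genes share libraries, so no chance rate is set beside this count. Groups of 4 libraries exist in HC2 alone, so only HC2 was checked. Each of the 5 libraries was the highest of its group. Gap43 was at 195.7 RPKM in HC2 wild-type replicate 2, and the next library was at 34.8 RPKM. Dcx was at 10.3 RPKM in HC2 wild-type replicate 5, and the next was at 3.04 RPKM. Neurod1 was at 2.21 RPKM in HC2 knockout replicate 1, against 0.737 RPKM in the next. Eomes was at 0.405 RPKM in HC2 wild-type replicate 2, against 0.162 RPKM. Stmn2 was at 0.104 RPKM, a single read, in HC2 knockout replicate 7, with the other 3 libraries at 0. Any value above 0 would have been flagged there.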

How the results depend on the processing

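The calls between HC2 and HC1 (6 of 8 tested members, against 54.3% of all genes) and between SVZ and HC2 (5 of 8, against 67.2%) kept their directions under all settings run. In knockout libraries alone, 4 of the 6 passed (Neurod1, Sox4, Sox11 and Stmn2). Leaving out any single library lost none of these 6 and 5 calls, nor of the 3 of 8 between SVZ and HC1 (against 34.1% of all genes). These counts include Neurog2, Neurod1 and Stmn2, which passed the filter through the cultures where they are high. The number of members that passed between SVZ and HC1 was 3, and it was 5 with the 2 cultures fitted alone, 1 without both SVZ libraries that go against their labels and 0 in knockout libraries alone, where fewer libraries enter each mean. Gap43 joined in the fit of the 2 cultures alone (adjusted p = 0.00192). In knockout libraries alone Dcx (-1.18, adjusted p = 0.187) did not pass.

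No genotype difference of a member passed under any setting. Several changed sign: without both SVZ libraries Sox4 was 0.049 and Sox11 -0.0041 in SVZ, and with median-ratio scaling Gap43 was 0.0067 in SVZ. With single libraries left out, the SVZ differences ranged from -0.15 to 0.56 (Dcx), -0.032 to 0.25 (Tubb3), -0.18 to 0.090 (Sox4), -0.061 to 0.15 (Sox11), -0.025 to 0.32 (Stmn2) and -0.22 to 0.19 (Gap43). Dcx ranged from -0.19 to 0.10 in HC1, from -0.51 to 0.18 in HC2 and from -0.29 to 0.056 over both rounds. Neurog2 ranged from -0.37 to 0.12 in HC2 and from -0.24 to 0.0053 over both rounds. The causes were not tested.

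With the replicate number as a block, 0 members passed in SVZ, HC1 and over both rounds, as without it. After group means were subtracted, same-numbered knockout and wild-type libraries within SVZ and within HC1 had correlations of -0.26 to 0.01. Those of other numbers had -0.20 to 0.25. With 3 libraries per group, these values cannot decide whether the numbers pair the genotypes. Numbers shared across cultures were not checked. Neurog2, Neurod1 and Stmn2 had at most 4, 8 and 6 reads in a library of SVZ or HC1, which limits their precision. Eomes was at 0.402 RPKM or below there, from reads that could not be worked out. With single libraries left out, chosen after seeing the data, the ratio of reads between HC2 and HC1 ranged from 4.20 to 7.05 for Neurog2 and from 2.89 to 5.13 for Neurod1. Single libraries decided some values near the threshold: Dcx passed between HC2 and HC1 without HC2 knockout replicate 1 (adjusted p = 0.0486), Stmn2 between SVZ and HC1 without SVZ knockout replicate 1 (0.0139), and Dcx between SVZ and HC2 without HC2 knockout replicate 7 (0.0442). Neurod1 passed between SVZ and HC2 without HC2 knockout replicate 7 (0.0467) or wild-type replicate 3 (0.0452) and with median-ratio scaling (0.0467).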
